A study of Mus musculus with 6 samples.

Results

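The cytosolic ribosomal protein genes encode the proteins of the ribosome that works in the cytoplasm. Members were taken by symbol: protein-coding genes named Rpl or Rps with a number and at most 1 trailing letter, together with Rplp0, Rplp1, Rplp2 and Rpsa. The rule found 80 genes among the 55401 gene identifiers of the count table, 46 of the large subunit, 3 of the stalk that projects from it and 31 of the small subunit. S6 kinases, mitochondrial ribosomal proteins and pseudogenes were not members. A low-count filter left 74 of the 80 for testing, among 14661 tested genes in all.

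The counts came from ADC106, a mouse line from an angiosarcoma, which is a malignant tumour of vessel-lining cells. All cells were labelled wild type and were grown in DMEM with serum. They received a synthetic microRNA duplex at 12.5 nM, either a miR-497 mimic or a mimic labelled NC, and RNA was taken 3 days later for poly(A)-selected sequencing, with 3 libraries in each group. No untransfected cells are analysed here, ADC106 is a single line, and the labels do not say whether the 3 libraries of a group came from separate cultures, so the p-values measure the spread between these libraries, which may be technical. A library held 25777676 to 36159499 counts. All 11 endothelial markers examined passed the filter, with a summed level of 9482 to 10182 CPM (counts scaled to normalised library size) in NC and 9020 to 9550 in miR-497. Singly, 7 of them rose and 3 fell (Pecam1, Flt1 and Eng) at an edgeR adjusted p below 0.05, where 23.8% of all tested genes rose and 26.0% fell. Leukocyte markers summed to at most 13.2 in NC and 23.1 in miR-497, and epithelial markers to at most 1.63 in any library. Of 6 fibroblast markers, Lum was at 0 in every library, and the list summed to 256 to 272 CPM in NC and 416 to 492 in miR-497; Col1a1 (0.84, log2 fold change, edgeR adjusted p = 7.4e-09) and Col1a2 (1.15, edgeR adjusted p = 4.4e-10) rose and Col3a1 fell (-0.79, edgeR adjusted p = 1.9e-05).

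Ribosomal proteins are made in near-equal numbers, since each ribosome carries a single copy of most of them, and an excess of free protein is degraded. Their mRNAs are short, abundant and stable, and most begin with a C followed by a run of pyrimidines, the 5' terminal oligopyrimidine (TOP) motif, through which the kinase mTOR and the binding protein Larp1 control their translation together. A microRNA acts through pairing between its bases 2 to 8, the seed, and a transcript, most strongly in the 3' UTR and more weakly in the coding sequence, and the usual outcome is less mRNA.

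The labels name the mimic only as miR-497, with neither species nor arm. It is taken here to be the mouse 5p arm, miR-497a-5p, which is shown with its seed in capitals beside family members that share the seed, since the sites described further on are matches to it (RefSeq, GRCm38.p6).
mmu-miR-497a-5p: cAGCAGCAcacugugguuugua
mmu-miR-195a-5p: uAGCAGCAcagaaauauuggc
mmu-miR-15a-5p: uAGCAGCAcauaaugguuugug
mmu-miR-16-5p: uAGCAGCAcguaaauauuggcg
The miR-497a-5p arm lies at chr11:70234730-70234751 on the plus strand. The other 3 differ from it beyond the seed. The Mir497 gene had 0 counts in all libraries, and poly(A) libraries do not read the mimic itself.

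Most ribosomal protein mRNAs were modestly higher after miR-497. Of the 74 tested genes, 55 (74.3%) rose, 5 (6.76%) fell and 14 were not called, where a call needed an adjusted p below 0.05 in edgeR's quasi-likelihood F-test with Benjamini-Hochberg adjustment over every tested gene. Over all tested genes the same rule called 23.8% higher and 26.0% lower, or 49.8% in either direction. The median log2 fold change of the 74 was 0.35, a fold of 1.27, with the middle of the distribution between 0.16 and 0.47, and the median of all tested genes was -0.02. All 3 miR-497 libraries lay above all 3 NC libraries for 56 of the 74 genes and below them for 5, against 27.8% and 29.6% of all tested genes. Sizes were small: 46 of the 60 calls were for changes under 0.5 on the log2 scale, 11 rose at least 1.5-fold and 2 rose at least 2-fold. In bulk RNA, a change in how much of this mRNA each cell holds and a change in which cells are present cannot be told apart.

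**Figure D1:**
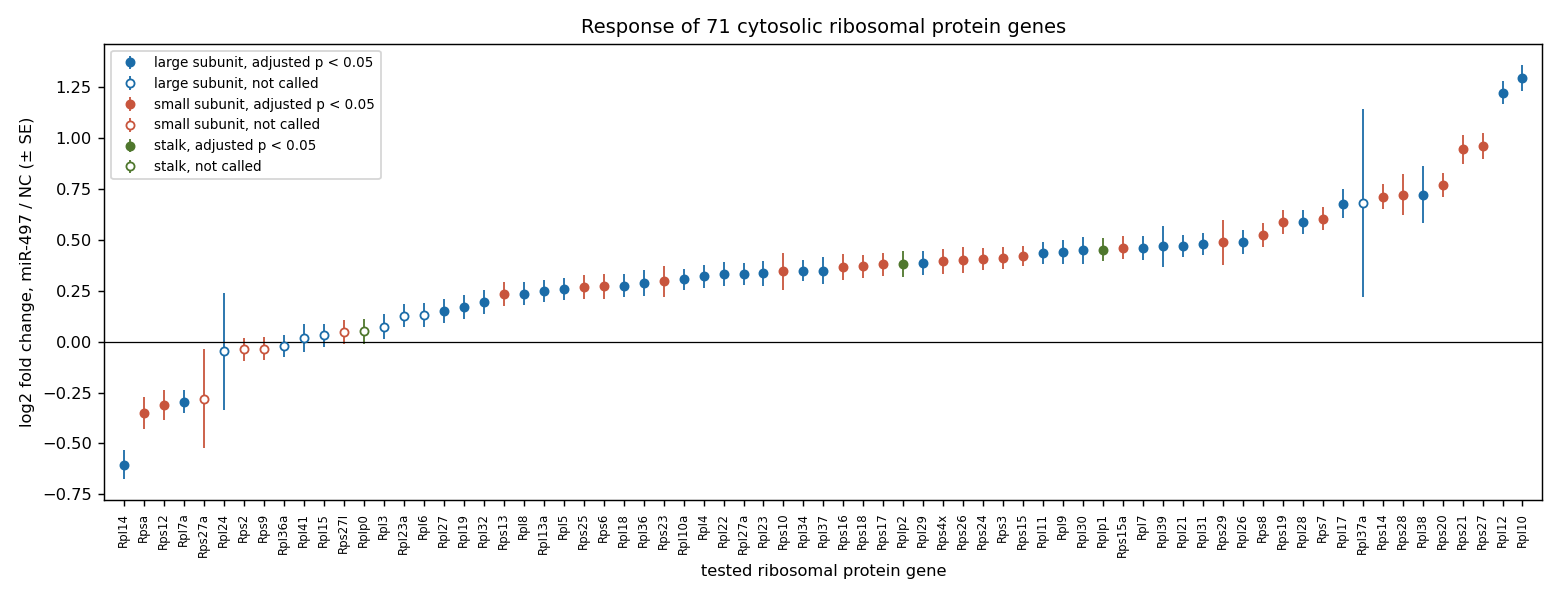
Log2 fold change, miR-497 over NC, with its standard error (vertical axis) for 71 of the 74 tested ribosomal protein genes in rank order (horizontal axis); colours mark the subunit and filled points are those with an adjusted p under 0.05. Most lie above 0, and Rpl10 at 1.30 and Rpl14 at -0.60 are the ends of the range.

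Both subunits showed the same pattern. Among 40 large-subunit genes 30 rose and 2 fell, with a median of 0.33. Among 31 small-subunit genes 23 rose and 3 fell, with a median of 0.38. Of the 3 stalk genes 2 rose. The proportion of all counts that fell on ribosomal protein genes was 3.37%, 3.56% and 3.40% in the NC libraries and 4.33%, 4.01% and 4.13% in the miR-497 libraries. Groups did not overlap, and the means were 3.44% ± 0.106 and 4.16% ± 0.163 (SD, n = 3; exact 2-sided permutation p = 0.1, the smallest that 3 against 3 can give). Counts on mitochondrially encoded genes were also a larger share after miR-497 (3.30% against 2.11%), and with these left out of the total the ribosomal protein means were 3.52% and 4.30%. The ratio of large-subunit to small-subunit counts was 1.57 ± 0.0078 in NC and 1.61 ± 0.0116 in miR-497 (SD, n = 3; exact p = 0.1), but with the 3 most abundant genes of each subunit left out it was 1.80 and 1.74, so that its direction rests on those few genes.

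The libraries within a group were not alike for these genes. Taking the median over members of each library's log2 difference from the NC mean, the NC libraries stood at -0.07, 0.04 and 0.01 and the miR-497 libraries at 0.42, 0.30 and 0.31. NC library 1 was the lowest NC library for 56 of the 74 genes, and miR-497 library 1 was the highest miR-497 library for 71. The gap between the groups was present without either: 52 genes rose without NC library 1 and 53 without miR-497 library 1. Gene by gene, the median coefficient of variation was 5.03% in NC and 4.92% in miR-497.

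Ribosomal protein mRNAs are short and abundant, and other genes of that kind also leaned upwards. The median main transcript was 774.5 bases for the tested members and 2966 bases for all tested protein-coding genes. Among 742 other protein-coding genes with a main transcript under 1000 bases, 29.8% rose and 16.4% fell, and among 2408 others at 100 CPM or more, 35.2% rose and 33.0% fell. The 72 other genes that met both criteria had 52.8% higher, 20.8% lower and a median of 0.16, between the 0.35 of the ribosomal protein genes and the -0.02 of all genes. These 72 include 5 genes taken up further on as ribosomal or TOP genes (Rps3a1, Fau, Naca, Eif3k and Tma7); without them, in a comparison added after seeing the data, 34 of 67 (50.7%) were higher and 15 (22.4%) lower, with a median of 0.15. The 67 still hold the mitochondrially encoded mt-Nd1 (0.59) and mt-Nd6 (0.67). Length was that of the annotated main transcript, and whether that form was the expressed one was not tested. When trends with gene length and GC content were removed from each library, 51 ribosomal protein genes rose and 5 fell, with a median of 0.30. Any part of transcript length in the pattern beyond that was not tested. Across the 74 genes the log2 fold change ran weakly against coding length (Pearson r = -0.30, Spearman rho = -0.34) and had almost no relation to level (r = -0.06), which is a description across genes that share their libraries.

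**Figure D2:**
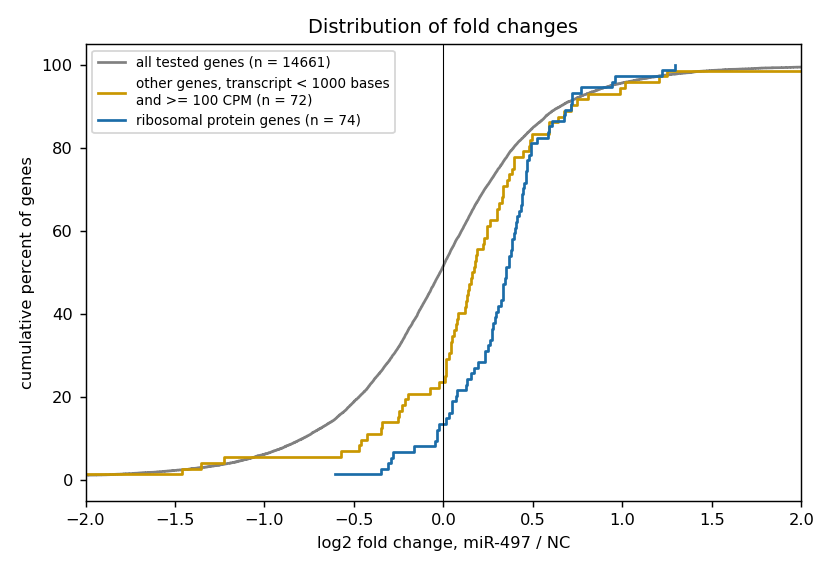
Cumulative percent of genes (vertical axis) at or below each log2 fold change, miR-497 over NC (horizontal axis), for all 14661 tested genes, for 72 other protein-coding genes with short transcripts and at least 100 CPM, and for the 74 ribosomal protein genes. The curve of the ribosomal protein genes lies to the right of the others through most of its course, with medians of -0.02, 0.16 and 0.35.

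Rpl10 and Rpl12 rose the most. Rpl10 (chrX:74270812-74273135) encodes a protein of the large subunit that joins late in assembly, near the tRNA binding sites. Its level was 325, 350.3 and 324 CPM in the NC libraries and 892, 781 and 779.7 in the miR-497 libraries, so every miR-497 library was more than 2-fold above every NC library. On the log2 scale it rose by 1.30 with an SE of 0.063 (edgeR adjusted p = 7.7e-11). Rpl12 (chr2:32961559-32965345) encodes a protein at the base of the stalk, where elongation factors bind. It stood at 297, 297 and 282 CPM in NC and 717, 677 and 646 in miR-497, groups far apart and close within themselves (log2 fold change 1.22, SE 0.056, edgeR adjusted p = 3.8e-11).

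The next largest rises were of small-subunit genes with very short mRNAs. Rps27 (chr3:90212522-90213651), which encodes a zinc-finger protein, had 74.9, 84.9 and 76.5 CPM in NC and 165, 145 and 149.8 in miR-497 (log2 fold change 0.96, SE 0.064, edgeR adjusted p = 2.8e-09). Rps21 (chr2:180257377-180258445), whose protein takes part in maturation of the small subunit, had 141, 158 and 151 CPM in NC and 328, 274 and 265 in miR-497 (log2 fold change 0.94, SE 0.072, edgeR adjusted p = 1.5e-08). In neither gene did the groups overlap, which was a condition for choosing the largest rises and falls. Rps27 shares 98.6% of its 50-base words and Rpl10 92.1% with other annotated genes, so reads of these 2 genes are uncertain to the extent that the counting could split them; Rps21 (26.4%) and Rpl12 (49.4%) share fewer. The other 7 genes that rose at least 1.5-fold were Rps20, Rpl38, Rps28, Rps14, Rpl17, Rps7 and Rpl28. Rps20, a protein of the head of the small subunit, had 233, 256 and 256 CPM in NC and 446, 403 and 419 in miR-497, without overlap (0.77, edgeR adjusted p = 1.3e-08). It shares 7.57% of its words, but over a main transcript of 3706 bases, 3167 of them 3' UTR, and with 50 other genes.

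**Figure D3:**
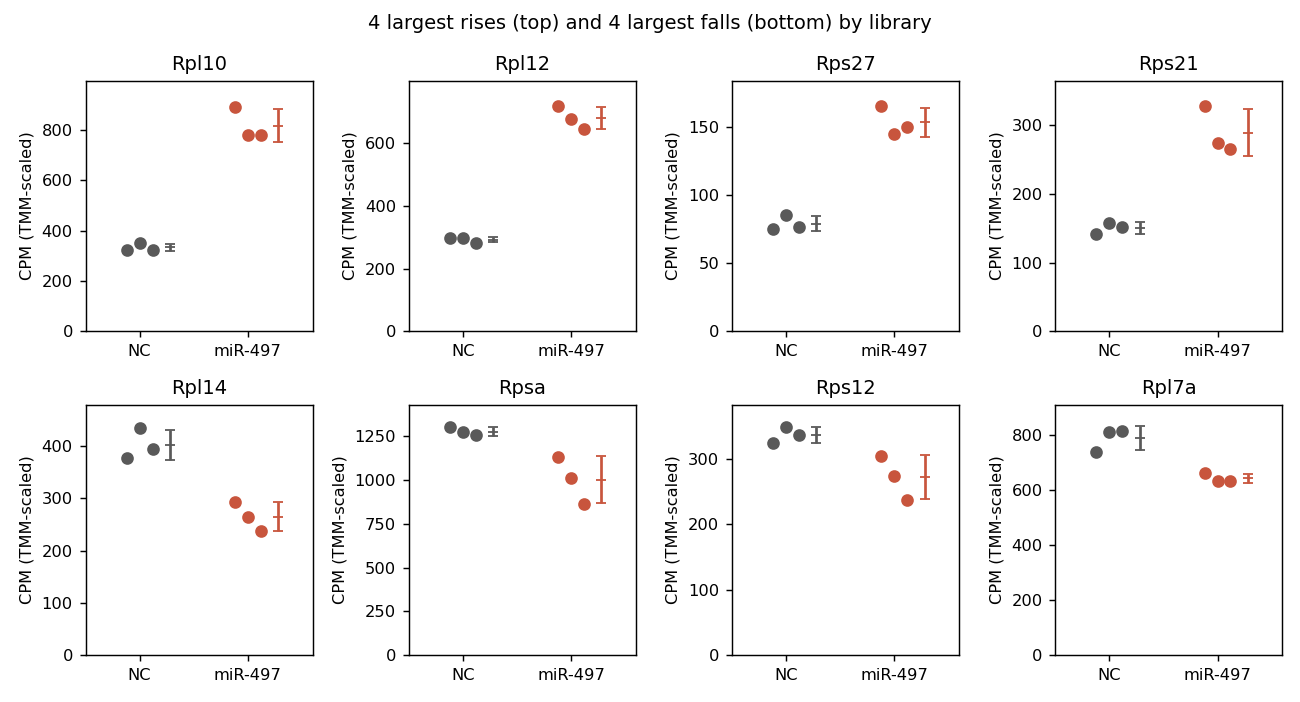
Normalised counts, in CPM (vertical axes, from 0), in each NC and miR-497 library for the 4 ribosomal protein genes with the largest rises (top) and the 4 with the largest falls (bottom); the bar beside each group is the mean ± SD of 3 libraries. In each of the 8 panels the groups do not overlap, which was a condition for choosing these genes. For Rpsa the miR-497 libraries spread from 864 to 1132.

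A small set went the other way. Rpl14 (chr9:120571444-120574654), a protein of the large subunit, fell from 378, 434 and 395 CPM to 294, 264 and 237, with all 3 miR-497 libraries below all 3 NC libraries (log2 fold change -0.60, SE 0.072, edgeR adjusted p = 2.7e-06). It was the only member of the 5 that fell to change by more than 1.5-fold. Rpsa (chr9:120127689-120132369), a small-subunit protein also known as the laminin receptor, had 1303, 1273 and 1258 CPM in NC and 1132, 1013 and 864 in miR-497 (log2 fold change -0.35, SE 0.077, edgeR adjusted p = 0.0011). The NC libraries were tightly grouped and the miR-497 libraries more scattered, without overlap.

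Rps12 (chr10:23785183-23787275) and Rpl7a (chr2:26910764-26913318), a small-subunit and a large-subunit gene, fell by less. Rps12 stood at 325, 349 and 336 CPM in NC and 304, 274 and 237 in miR-497 (log2 fold change -0.31, SE 0.072, edgeR adjusted p = 0.0018). Rpl7a stood at 739.7, 812 and 817 in NC and 662, 635 and 634 in miR-497 (log2 fold change -0.29, SE 0.057, edgeR adjusted p = 0.00034). The groups were separate in both, and they share 83.6% and 81.2% of their words with other genes. Rpl14, Rpsa, Rps12 and Rpl7a were called lower in every one of 17 alternative analyses. The 14 genes not called were Rps27a and Rpl37a, which varied widely between libraries, and 12 with log2 fold changes between -0.05 and 0.13, among them Rpl24, Rps2, Rps9, Rpl36a, Rpl41, Rpl15, Rps27l, Rplp0, Rpl3, Rpl23a and Rpl6.

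Rpl14 and Rpsa were also the members with the most miR-497 seed matches in the coding sequence. A match was TGCTGCT, the complement of the seed, or GCTGCTA, which lacks the outermost pair but has an A opposite base 1; TGCTGCT followed by A is an 8-base site. The main transcript of 10 of the 80 members held a coding match. Rpl14 had 4, Rpsa 3, Rpl5 2, Rpl6 2, and Rplp0, Rplp1, Rplp2, Rpl32, Rpl23 and Rpl13a 1 each. The windows of the 4 genes with more than 1 are shown because they carry this comparison (GENCODE M21 transcripts, GRCm38; capitals mark the match, and the number is the codon in which the match begins).
Rpl14 codon 155, chr9:120574197-120574226 plus strand: gctgcagcTGCTGCTGCTGCTAaagctaaa
Rpl14 codon 133, chr9:120574126-120574155 plus strand: aacttcaaagaGCTGCTAtcctgaaagctt
Rpsa codon 90, chr9:120130124-120130153 plus strand: gtgctgaagttTGCTGCTgccacaggagcc
Rpsa codon 216, chr9:120131009-120131038 plus strand: gaggagcaggcTGCTGCTgagaaggctgtg
Rpsa codon 239, chr9:120131078-120131107 plus strand: cctgagttcacTGCTGCTcagcctgaggtg
Rpl5 codon 103, chr5:107903376-107903667 plus strand, across a splice junction: ttgcactggccTGCTGCTggcccgcaggct
Rpl5 codon 244, chr5:107907204-107907233 plus strand: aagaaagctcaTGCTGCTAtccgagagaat
Rpl6 codon 22, chr5:121205460-121205489 plus strand: gctggcagtgaTGCTGCTgcctcccggccc
Rpl6 codon 180, chr5:121207170-121208394 plus strand, across a splice junction: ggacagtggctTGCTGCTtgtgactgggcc
All of these lie in coding exons. At Rpl14 codon 155, 3 overlapping matches sit in a run of GCT triplets that ends in the 8-base form, so they could not all be paired at once. Rpl5 codon 244 is the other 8-base site.

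By number of coding matches the 4 genes did not move alike. Rpl14 and Rpsa fell, Rpl5, with an 8-base site, rose (0.26, edgeR adjusted p = 0.00092), and Rpl6 was not called (0.13, edgeR adjusted p = 0.081). Their median was -0.11. The 6 genes with a single coding match had a median of 0.29, with 5 higher, and the 57 tested genes with no match in the transcript had a median of 0.35, with 43 higher and 3 lower. Other tested genes with 2 or more coding matches had a median of -0.18 (n = 2055), those with 1 a median of -0.06 (n = 3053), and those with no match anywhere a median of 0.06 (n = 5620). Rps12 and Rpl7a fell without a match in any region of the main transcript. Matches in the 3' UTR were found in 6 genes that include Rpl28, Rps15a, Rps24 and Rps7. Of the 6, 5 rose and Rpl6 was not called, with a median of 0.45, where 74.3% of all tested members rose. The Rps15a matches lie in the 4728-base 3' UTR of its annotated main transcript, and whether the expressed mRNA carries that UTR was not tested. Of the 2 with a match in the 5' UTR, Rps26 rose (0.40, edgeR adjusted p = 5.1e-05) and Rpl36a was not called (-0.02, edgeR adjusted p = 0.75). With so few genes in each class these numbers are a description, and pairing at any of the sites was not measured.

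**Figure D4:**
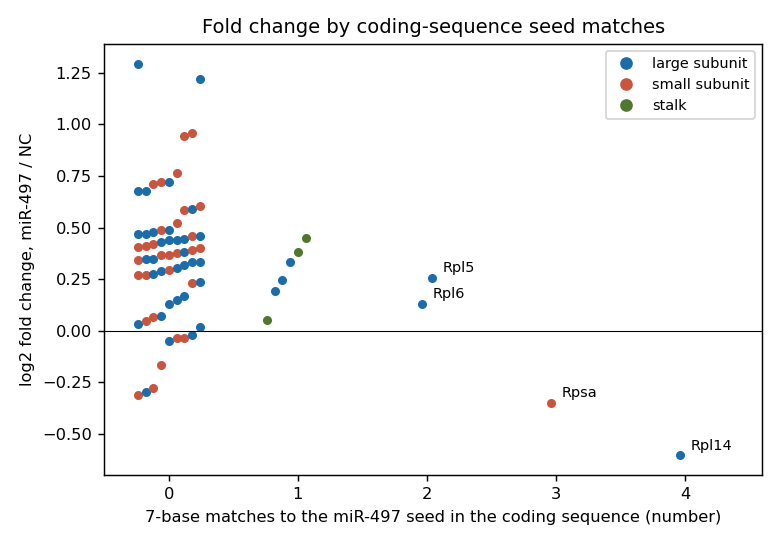
Log2 fold change, miR-497 over NC (vertical axis), of each of the 74 tested ribosomal protein genes by the number of 7-base matches to the miR-497 seed in its coding sequence (horizontal axis; points are spread sideways for clarity). Genes without a match range from -0.31 to 1.30, and the 2 genes with 3 and 4 matches, Rpsa and Rpl14, lie at -0.35 and -0.60.

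The members with the highest level per kilobase of main transcript in NC changed little. These were Rpl23a (1663 CPM per kilobase), Rpl19 (1491) and Rps2 (1422), proteins of the exit-tunnel rim, of a bridge between the subunits and of the mRNA entry channel. Rps2 had 1554, 1538 and 1573 CPM in NC and 1592, 1487 and 1466 in miR-497, and the groups overlapped (log2 fold change -0.04, edgeR adjusted p = 0.61; 0.0086 under upper quartile scaling). Rpl19 had 1094, 1138 and 1127 CPM in NC and 1338, 1242 and 1196 in miR-497, a difference called at 0.17 (edgeR adjusted p = 0.023) that was lost in 7 of 17 alternatives. Rpl23a had 932, 929 and 934 in NC and 1076, 984 and 993 in miR-497, without overlap but past the threshold only in 5 alternatives (0.13, edgeR adjusted p = 0.066).

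The stalk recruits the elongation factors, and is built from Rplp0 carrying pairs of Rplp1 and Rplp2. Its 3 genes did not rise evenly. Rplp0 stood at 1478, 1581 and 1625 CPM in NC and 1732, 1578 and 1539 in miR-497, with overlapping groups (log2 fold change 0.05, SE 0.063, edgeR adjusted p = 0.54; -0.0028 without miR-497 library 1). Rplp1 stood at 343, 377 and 363 in NC and 524, 469.7 and 487 in miR-497, and rose by 0.45 (SE 0.058, edgeR adjusted p = 5.8e-06). Rplp2 stood at 146, 173 and 170.0 in NC and 224, 207 and 207 in miR-497, and rose by 0.38 (SE 0.064, edgeR adjusted p = 9.9e-05). The 2 acidic partners were separate between the groups, whereas their anchor was not; the difference between the genes was not tested.

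Rpl5 and Rpl11 bind the 5S rRNA and, when free of ribosomes, bind Mdm2, the ligase that degrades p53. Rpl5 (chr5:107900502-107909005) was at 720.3, 719.7 and 731 CPM in NC and 916, 854 and 827 in miR-497. Rpl11 (chr4:136028265-136053428) was at 276, 304 and 298 in NC and 399, 384 and 401 in miR-497 (log2 fold change 0.43, SE 0.054, edgeR adjusted p = 4.2e-06). Both rose without overlap. Rpl5 shares 93.8% of its words with other transcripts, and with the counts of its pseudogenes added its log2 fold change was 0.27.

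The 4 small-subunit genes given here, named for links to signalling, disease or viral initiation, all rose. Of other small-subunit genes chosen by name, Rpsa fell and Rps27l was not called, while Rps27 rose. Rps6, the substrate of the S6 kinases, had 504, 560.4 and 565 CPM in NC and 687, 653 and 625 in miR-497 (log2 fold change 0.27, edgeR adjusted p = 0.0012; adjusted p = 0.094 with the length and GC offsets and the replicate block together). Rps19, mutated in Diamond-Blackfan anaemia, had 220.4, 244 and 246 in NC and 372, 337 and 357 in miR-497 (0.58, edgeR adjusted p = 3.5e-07). Rps14, lost in the 5q deletion syndrome, had 583, 561 and 546 in NC and 1001, 883 and 879 in miR-497 (0.71, edgeR adjusted p = 5.9e-08). These 3 genes showed no overlap between the groups, and the rises of Rps14 and Rps19 were above the median of the members. Rps25, needed for initiation at some viral internal ribosome entry sites, had 455, 464 and 462 in NC and 602, 536 and 527 in miR-497, again without overlap (0.27, edgeR adjusted p = 0.001).

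On the large subunit, Rpl22 and Rpl38 are known for roles in lymphocyte and axial skeleton development. Rpl22 had 152, 162 and 156 CPM in NC and 212, 198 and 184 in miR-497 (log2 fold change 0.33, edgeR adjusted p = 0.00014; adjusted p = 0.051 with the length and GC offsets and the replicate block together). Its paralog Rpl22l1, which is not a member by symbol, had 25.7, 28.5 and 24.2 in NC and 28.1, 24.4 and 24.1 in miR-497 (-0.04, edgeR adjusted p = 0.75, with a sign that changed under 3 alternatives). Rpl38 had 85.1, 154 and 148 in NC and 214, 210.3 and 214 in miR-497 (0.72, SE 0.14, edgeR adjusted p = 0.00039). Its NC library 1 stood apart from the other 2, and without it the log2 fold change was 0.48. It was also the lowest NC library for Rps27, Rpl36, Rps29, Rps28 and Rps21, which with Rpl38 are the 6 tested members with the shortest main transcripts, from 345 to 394 bases. Rps28, for example, had 52.9, 75.8 and 75.1 CPM in NC and 116, 107 and 113 in miR-497, and Rps29 had 44.9, 66.6 and 68.9 in NC and 87.2, 85.3 and 80.2 in miR-497. The miR-497 libraries lay above all NC libraries in each of these 6 genes.

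Members that are paralogs of another member were set beside their parent. Rps27l, a p53-inducible paralog of Rps27, had 114, 125 and 132 CPM in NC and 132, 128 and 124 in miR-497, overlapping groups (0.05, edgeR adjusted p = 0.53; the sign changed under 3 alternatives), whereas Rps27 rose. The ratio of Rps27 to Rps27l counts was 0.638 ± 0.051 in NC and 1.20 ± 0.057 in miR-497 (SD, n = 3, exact permutation p = 0.1, the smallest possible). Rps27l thus had more counts in every NC library and Rps27 in every miR-497 library. Their main transcripts have 345 bases (Rps27) and 499 (Rps27l), and per kilobase the means were 228 and 248 CPM in NC and 444 and 256 in miR-497. Rps27 shares 98.6% of its words and Rps27l 22.4%, so reads lost to sharing could place Rps27 too low, and which gene is more abundant in NC is uncertain. Rpl39, which lines the exit tunnel, had 39.6, 49.9 and 48.0 in NC and 74.3, 56.7 and 59.2 in miR-497 (0.47, edgeR adjusted p = 0.00092), and its testis paralog Rpl39l had 0 counts in all 6 libraries. Rpl3, near the peptidyl transferase centre, had 857, 933 and 938 in NC and 1028, 947 and 896 in miR-497 (0.07, edgeR adjusted p = 0.35), and its muscle paralog Rpl3l had at most 2 counts in a library. Rpl10l, a paralog of Rpl10, had 0 counts in all 6. A count of 0 allows up to 3 counts, which is 0.083 to 0.116 CPM of the unscaled library total, for counting error only.

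Rpl13, Rpl35 and Rpl35a were also listed at 0 in every library, although their proteins belong to every ribosome. They share 80.3%, 95.1% and 54.5% of their words with other transcripts, and how the counting treated reads with several possible origins is not given in the sources used here. A listing of 0 is therefore not read as absence of the mRNA. Rpl24, at 44 to 77 counts, is likewise far below its neighbours in the ribosome, and no other tested member had under 44 counts in any library. In all, 42 of the 80 members share 50% or more of their words. The counts were alike on both sides of that limit: of 35 tested genes that share less, 25 rose and 3 fell with a median of 0.37, and of the 39 that share 50% or more, 30 rose and 2 fell with a median of 0.31. Among the 8 tested genes that share under 20%, 7 rose (Rpl4, Rpl8, Rpl39, Rps3, Rps15a, Rps20 and Rps24) and 1 fell. The low shares of Rps15a and Rps20 are taken over long main transcripts, of 5179 and 3706 bases, with 3' UTRs of 4728 and 3167 bases. Words of these 2 genes are found in 64 and 50 other genes, so a low share does not make their reads unique. Strand use in the counting is not given either, and of the 61 tested genes with under 5% of their exons overlapped on the opposite strand, 45 rose and 5 fell. Rps3, with 2.96% shared, had 825, 854 and 875 CPM in NC and 1175, 1101 and 1115 in miR-497 (0.41, edgeR adjusted p = 9.8e-06).

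Rpl37a and a pseudogene of it varied in opposite directions across libraries. It had 7198, 9333 and 1436 counts in the NC libraries and 9836, 2607 and 11222 in the miR-497 libraries. The processed pseudogene Gm4149, which holds 34.8% of its words, had 114, 124 and 3940 counts in NC and 115, 6225 and 143 in miR-497. The 2 libraries low for Rpl37a were those high for Gm4149. Alone, Rpl37a was not called (0.68, SE 0.46, edgeR adjusted p = 0.24), and with pseudogene counts added it was called higher (0.64, edgeR adjusted p = 9.5e-05), an analysis chosen after seeing the data. Whether reads were divided between the pair was not tested. Rps27a, the ubiquitin fusion, had 204, 565 and 232 CPM in NC and 289.9, 268 and 268 in miR-497, with NC library 2 alone far above the other 5. It was not called (-0.28, edgeR adjusted p = 0.36), but its call and direction moved with the analysis. It was called higher without NC library 2 (0.34, edgeR adjusted p = 0.0018), and lower both without NC library 1 (-0.55, edgeR adjusted p = 0.041) and with no filter on low counts (-0.29, edgeR adjusted p = 4.9e-06). No partner of that size was found for it, and the source of its excess was not tested.

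**Figure D5:**
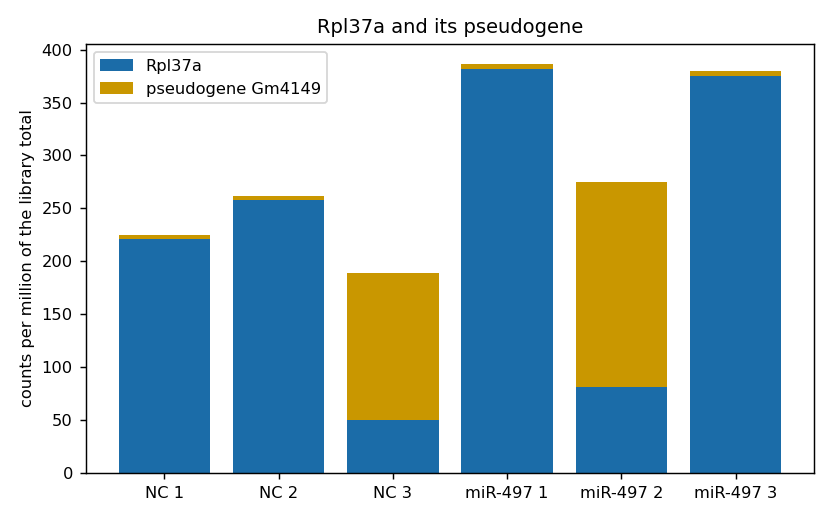
Counts as CPM of the unscaled library total (vertical axis) assigned to Rpl37a and, stacked on top, to its processed pseudogene Gm4149 in each library (horizontal axis). In NC 3 and miR-497 2 most of the combined height belongs to the pseudogene, with 3940 and 6225 counts, against 114 to 143 in the other 4.

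Promoters were examined for the TOP start and for motifs that housekeeping promoters carry, in windows of 250 bases before to 50 after the start (RefSeq, GRCm38.p6). Of the 80 members 60 had an entry. A C followed by at least 4 pyrimidines began exactly at the start in 13 of 60 (21.7%), against 3.01% of the 27025 genes with an entry, and within 20 bases of it in 50 (83.3%), against 53.3%. A pair of motifs that can overlap in their shared AAG was searched on both strands from 100 bases before to 50 after the start. The letters CCGGAAG, a core of ETS-factor motifs, were in 19 (31.7%), against 7.52%, and AAGATGGCG, a YY1-type motif, in 3 (5.0%), against 1.24%. TATAAA in the 50 bases before the start was in none, against 3.15%. Windows from 60 bases before to 20 bases after the start are shown for 3 genes that rose (Rpl10, Rpl12, Rps27) and 4 that fell (Rpl14, Rpsa, Rps12, Rpl7a), with the pyrimidine runs near the start in capitals, because genes with a run and genes without one in this window are found in both kinds. Rpl10 and Rpsa have none within 20 bases of the annotated start. Whether their mRNAs begin at that start was not tested, so a run at another start is not excluded.
Rpl10, chrX:74270756-74270835 plus strand: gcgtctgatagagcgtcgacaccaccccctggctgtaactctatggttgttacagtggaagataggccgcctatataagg
Rpl12, chr2:32961652-32961731 plus strand: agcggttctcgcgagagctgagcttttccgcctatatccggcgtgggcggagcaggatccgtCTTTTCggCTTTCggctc
Rps27, chr3:90213629-90213708 minus strand: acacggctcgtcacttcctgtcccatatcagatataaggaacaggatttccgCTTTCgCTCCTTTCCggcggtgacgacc
Rpl14, chr9:120571457-120571536 plus strand: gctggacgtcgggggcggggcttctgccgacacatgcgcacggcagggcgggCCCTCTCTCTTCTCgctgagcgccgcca
Rpsa, chr9:120127706-120127785 plus strand: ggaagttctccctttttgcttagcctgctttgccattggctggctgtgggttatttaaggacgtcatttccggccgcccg
Rps12, chr10:23787190-23787269 minus strand: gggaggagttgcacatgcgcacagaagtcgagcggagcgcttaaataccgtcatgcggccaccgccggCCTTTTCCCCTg
Rpl7a, chr2:26910747-26910826 plus strand: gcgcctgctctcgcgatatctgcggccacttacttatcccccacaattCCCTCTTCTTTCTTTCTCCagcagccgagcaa
Of 44 tested members with such a run within 20 bases, 33 rose and 3 fell, with a median of 0.33, and of 10 without, 7 rose and 1 fell, with a median of 0.37.

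Ribosomal proteins whose symbols lie outside the rule were also higher. Fau, a fusion of a small-subunit protein, rose on the log2 scale by 0.40 (edgeR adjusted p = 1.1e-05), Rps3a1 by 0.64 (edgeR adjusted p = 8.4e-08), and Rack1, the scaffold on the head of the small subunit, by 0.74 (edgeR adjusted p = 1.4e-08). Of 3 paralogs outside the rule that were tested, Rpl36al rose (0.36, edgeR adjusted p = 0.0065), and Rpl22l1 and Rpl7l1 (0.08, edgeR adjusted p = 0.22) were not called.

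Other mRNAs of the TOP class were mixed. Of 22 listed, which encode elongation and initiation factors and related proteins, 12 rose and 3 fell, with a median of 0.20, where the rule called 23.8% of all tested genes higher and 26.0% lower. Pabpc1, the poly(A)-binding protein, had 519.9, 545 and 538 CPM in NC and 1712, 1573 and 1453 in miR-497 (1.56, edgeR adjusted p = 9.5e-12). Naca, which binds nascent chains at the tunnel exit, rose by 1.25 (edgeR adjusted p = 2.5e-10). Its partner Btf3 fell by 0.57 on the log2 scale (edgeR adjusted p = 1.0e-06), and Hnrnpa1, an RNA-binding protein of the nucleus, fell by 0.66 (edgeR adjusted p = 1.5e-07).

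A mixed list of 20 tested genes held TOP regulators and genes of growth signalling to translation. Of these 4 rose and 9 fell, with a median of -0.15, against 23.8% higher and 26.0% lower over all tested genes. Larp1 had 369, 377 and 390.4 CPM in NC and 296, 299 and 273 in miR-497 (-0.39, edgeR adjusted p = 1.4e-05), and Mtor had 72.0, 69.5 and 76.1 in NC and 47.9, 58.1 and 56.5 in miR-497 (-0.42, edgeR adjusted p = 0.00017). The groups were separate in both. The S6 kinase gene Rps6kb1 fell by 0.60 on the log2 scale (edgeR adjusted p = 1.7e-07) and the initiation scaffold Eif4g1 by 0.83 (edgeR adjusted p = 3.3e-08). The translation repressors moved both ways: Eif4ebp2 (0.65, edgeR adjusted p = 6.4e-08) and Pdcd4 (0.48, edgeR adjusted p = 0.0011) rose, and Eif4ebp1 fell (-0.46, edgeR adjusted p = 2.7e-06), a gene named after its value was seen. Myc, a transcriptional activator of ribosome genes, was lower by a small amount (-0.17, edgeR adjusted p = 0.014) that was lost in 4 of 17 alternatives. These are mRNA levels, and translation was not measured.

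Genes for rRNA synthesis and ribosome assembly were mixed. Of 20 genes of RNA polymerase I and its factors, which transcribe the rRNA precursor, 5 rose and 6 fell, with a median of -0.07, close to the 23.8% and 26.0% of all tested genes. The shared subunit genes Polr2f (0.83, edgeR adjusted p = 4.1e-08) and Polr1d (0.24, edgeR adjusted p = 0.0014) rose, and Polr2h (-0.67, edgeR adjusted p = 4.4e-05) and Taf1d (-0.47, edgeR adjusted p = 0.00083) fell. Of 54 assembly factors 14 rose and 19 fell, with a median of -0.09. Rrs1, which brings the 5S particle to the large subunit, rose by 0.68 (edgeR adjusted p = 1.6e-07) and Utp4, of the small-subunit processome, by 0.56 (edgeR adjusted p = 4.5e-07). Rcl1, which acts in early cleavage of the rRNA precursor, fell by 0.81 on the log2 scale (edgeR adjusted p = 1.9e-07) and Nat10, an RNA acetyltransferase, by 0.65 (edgeR adjusted p = 1.9e-06). For both lists these counts stand beside 23.8% higher and 26.0% lower over all tested genes.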

How the data were processed

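The authors deposited unnormalised read counts, in whole numbers, for 6 libraries. Per the submitters' processing notes, STAR 2.5.4b, featureCounts, Subread 1.6.1, edgeR 3.32.1 and GRCm38 were used; their settings, strand and the treatment of reads with several origins are not given in the sources used here. Symbols, coordinates and transcripts came from GENCODE M21 (GRCm38), which matched 55141 of 55401 identifiers.

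All genes were fitted with edgeR 4.0.16 in R 4.3.3 (filterByExpr, minimum count 10 and minimum total 15, TMM, quasi-likelihood F-test on the group, Benjamini-Hochberg at 0.05). CPM, computed here with TMM-scaled library sizes, comes from the deposited counts. Fold changes are miR-497 over NC. Shared words are the percent of a gene's 50-base exon words found in other annotated genes. Single values per library were compared by exact permutation tests. The members and lists were chosen with earlier results of these data known. Genes with values in every library are the 4 largest rises and falls among called members, the 3 with the highest level per kilobase, and members of stated roles; of each list, the 2 with the smallest p in each direction. Rps3, Rps20, Rps28, Rps29, Rpl37a, Rps27a and the remaining chaperones were named after their values were seen.

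The alternatives were other scalings, filters, DESeq2 1.42.0, length and GC offsets, a replicate block, each library left out, and, chosen after seeing the data, pseudogene counts added to the parent. The replicate numbers are shared between groups, but same-numbered libraries did not deviate together (mean correlation -0.096). The fit was tested on simulated data. A few ribosomal protein genes count in the totals but are not reported here singly.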

Additional observations from a re-analysis of the deposited data

How the results depend on the processing

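The number of ribosomal protein genes that rose stayed between 47 and 57 over 17 alternatives, the number that fell between 4 and 6, and their median log2 fold change between 0.30 and 0.39; leaving out each library in turn gave 52 to 57, 4 to 6 and 0.30 to 0.39. The replicate numbers did not pair the libraries (correlations of deviations -0.12, -0.04 and -0.13). With the replicate block 53 rose and 4 fell with a median of 0.35, and with the length and GC offsets and the block together 47 rose and 4 fell. The counts of genes called among other TOP mRNAs (12 to 16), assembly factors (28 to 36) and RNA polymerase I genes (9 to 11) stayed within 1.5 times of their values. The large to small subunit count ratio, higher by 0.042 after miR-497, was lower by 0.058 (-0.058) without the 3 most abundant genes of each subunit; the cause was not tested.

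Among the 67 genes named by rule, 1109 of 1139 comparisons over the alternatives kept direction and side of the threshold, 16 lost the call, 6 gained it and 8 reversed. The reversed values were all near 0: upper quartile scaling gave 0.0085 for Rpl22l1 and 0.0086 for Rps2, the length and GC offsets gave -0.037 for Rps27l, and -0.030 with the replicate block. Leaving out 1 library gave a range of -0.11 to 0.033 for Rpl22l1, -0.018 to 0.10 for Rps27l and -0.0028 to 0.089 for Rplp0. In simulated libraries of this comparison, the changed genes were drawn from genes with an expected count above 50 at the mean library size. These were not only abundant genes, and tested genes below that count were left out. Of 50 genes changed by the smallest simulated fold, 1.25, 13 were called, as were 44 of 50 changed 1.5-fold and all 50 changed 2-fold. The part of depth in this was not tested. Of the members not called, Rpl24, Rpl37a and Rps27a had standard errors of 0.29, 0.46 and 0.24, and the other 11 of 0.054 to 0.069. How reads shared between genes were counted is not known, which limits the members listed at 0 or sharing most of their words. With pseudogene counts added, Rpl13 had 26 to 42 counts in a library, Rpl35 4 to 24 and Rpl35a 9 to 20. Why these 3 were listed at 0 was not tested.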

Other observations

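Of 7 tested chaperones that carry single ribosomal proteins to the nucleolus, 5 fell, where 26.0% of all tested genes did, and Aamp (0.02, edgeR adjusted p = 0.76) and Pdcd2l (edgeR adjusted p = 0.99) were not called, with a median log2 fold change of -0.25. Bccip, a chaperone of Rpl23, fell by 0.32 on the log2 scale (edgeR adjusted p = 0.0009), and Nap1l4, a nucleosome assembly protein family member, by 0.27 (edgeR adjusted p = 0.0006; 0.051 with the length and GC offsets and the replicate block together). Heatr3 (-0.25), an importer of Rpl5, Tsr2 (-0.33), a carrier of Rps26, and Grwd1 (-0.23), a carrier of Rpl3, were the other 3. Pdcd2, a chaperone of Rps2, was listed at 0. Among 10 tested genes of ribosome quality control and recycling, 2 rose and 3 fell, near the 23.8% and 26.0% of all tested genes. Rnf10, a ubiquitin ligase for small-subunit proteins, had 213, 222 and 230.1 CPM in NC and 118, 121 and 114 in miR-497 (-0.91, edgeR adjusted p = 5.2e-10), and Ascc3, a helicase that splits stalled ribosomes, fell by 0.69 on the log2 scale (edgeR adjusted p = 1.4e-07). Nufip1 (0.31, edgeR adjusted p = 0.0018) and Ankzf1 (0.47, edgeR adjusted p = 0.00063) rose.

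Between the start and end of 29 members lie 56 annotated snoRNA genes on the same strand. Such RNAs guide modification of rRNA, and whether each lies in an intron was not checked. The 28 tested hosts had 20 higher and 3 lower with a median of 0.33, and the 46 other tested members 35 higher and 2 lower with a median of 0.37. Of the 9 members with 3 or more snoRNA genes, 5 rose and 3 fell: Rpsa, Rps12 and Rpl7a, each with 3. The grouping by 3 or more was chosen after the values were seen and has no test. Of 8 snoRNA host genes outside the ribosome that were tested, only 1 rose and 1 fell, where 23.8% of all tested genes rose and 26.0% fell. These were Gas5, which rose (0.39, edgeR adjusted p = 0.00051), and Snhg1, which fell (-0.32, edgeR adjusted p = 0.0071). The call of Snhg1 was lost without NC library 2 and without miR-497 library 2.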
